A study of Mus musculus with 2 samples.

Results

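The widest regions of the enhancer mark H3K4me1 (histone H3 monomethylated at lysine 4) in melan-a cells were described, together with the binding of the coactivator EP300 inside them and at their edges. Members were the rows of the H3K4me1 list with a length of 2500 bp or more, and 961 of 59923 regions met this rule (1.60%). They were chosen by their measured width, so width, rank and position are given as descriptions. They were set beside the 21018 regions of 500 to 1000 bp. The data came from chromatin immunoprecipitation with sequencing (ChIP-seq) of 2 samples, anti-p300 (EP300) and anti-H3K4me1, and per the labels each sample stands for 2 replicates. Both were taken from melan-a, a single line of immortalized mouse melanocytes of the C57BL/6 Ink4a -/- strain, so that every library carries the Ink4a deletion. EP300 was deposited as 1 peak list per replicate, with 8451 peaks in replicate 1 and 10351 in replicate 2, whereas H3K4me1 was deposited as 1 list for both replicates. Whether separate cultures were used for the replicates is not stated, so the spread between the EP300 lists may be technical. The filtered ChIP libraries held 31439027 tags for EP300 replicate 1 and 32355042 for replicate 2. For H3K4me1 the depth is unknown. Coordinates are mm9. No gene annotation of that build was used here, so regions are given by position and not by gene, and the labelled cell type was not checked against marker genes.

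H3K4me1 is laid down by the methyltransferases KMT2C and KMT2D and marks active and poised enhancers as well as the flanks of active promoters. EP300 is a histone acetyltransferase that transcription factors recruit to enhancers and promoters, where it acetylates histone H3 at lysine 27 among other sites. Transcription factors and EP300 usually occupy stretches depleted of nucleosomes, with marked nucleosomes on either side, so a peak of EP300 often falls in a dip of the histone signal. Broad stretches of enhancer marks near genes of cell identity are known from many cell types.

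The wide regions made up 8.33% of the 38.6 Mb covered by H3K4me1, or 3.21 Mb. Their median width was 3000 bp, with quartiles at 2700 bp and 3650 bp, against a median of 650 bp for the regions of 500 to 1000 bp and 500 bp for the whole list. Of the wide regions, 470 were 2500 to 2950 bp long, 209 were 3000 to 3450 bp, 100 were 3500 to 3950 bp, 108 were 4000 to 4950 bp and 74 were 5000 bp or longer. The widest reached 9400 bp. How the authors' ranking was computed is not stated, so it may itself depend on width. The wide regions also stood high in it. Their median rank was 2880, with a best of 3 and a lowest of 25385, against a median rank of 20001.5 for the regions of 500 to 1000 bp. In the first 20% of the ranking lay 92.9% of the wide regions and 25.8% of those of 500 to 1000 bp. The highest log2 fold change within a region, as deposited, had a median of 4.69 over wide regions and 3.94 over regions of 500 to 1000 bp.

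Wide regions were found on every autosome, and they were rare on chromosome X. Chromosome 2 held 109, chromosome 11 held 93, chromosome 4 held 66, chromosome 1 held 65 and chromosome 15 held 64. Relative to its own number of H3K4me1 regions, chromosome 15 had the highest share of wide ones among the autosomes, at 2.25% (Clopper-Pearson 95% interval 1.73% to 2.86%). Chromosome 2 followed with 2.22% and chromosome 11 with 2.17%. Chromosome 13 had the lowest autosomal share, at 22 of 2556 regions or 0.861% (interval 0.540% to 1.30%). On chromosome X, 3 of 1568 regions were wide, or 0.191% (interval 0.0395% to 0.558%), against 957 of 58312 on the autosomes together, or 1.64% (interval 1.54% to 1.75%). The remaining wide region lay on sequence assigned to chromosome 9 without a fixed place. All intervals cover counting error only, and neighbouring regions are not independent, so true uncertainty is larger.

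Some wide regions lay close to one another. With a distance of at most 20 kb between edges, 398 of the 961 (41.4%) had another wide region as a neighbour, in 149 groups. The share of narrower regions with a wide region within 20 kb was not computed. Whether 41.4% is high for this list is therefore not shown. There were 97 groups of 2, 31 of 3, 5 of 4, 8 of 5, 6 of 6, 1 of 7 and 1 of 8, and the 52 groups with at least 3 members held 204 regions (21.2%). The share was 31.8% with neighbours within 10 kb and 50.6% within 50 kb. The 249 pairs of neighbours in these groups were a median of 4950 bp apart, with quartiles at 1200 bp and 10700 bp. In 73 pairs (29.3%) no other H3K4me1 region lay between them, and 59 pairs (23.7%) were separated by 1000 bp or less.

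Regions of any width were denser around the wide ones than around those of 500 to 1000 bp. A wide region had a median of 8 other H3K4me1 regions within 20 kb, with quartiles at 5 and 11, against a median of 4 for regions of 500 to 1000 bp, with quartiles at 2 and 7. Only 9 wide regions (0.937%) had none within 20 kb, against 1399 (6.66%) of those of 500 to 1000 bp. The nearest neighbour lay at a median distance of 500 bp for wide regions and 650 bp for regions of 500 to 1000 bp. Neighbours within 1000 bp on both sides were found for 260 wide regions (27.1%) and for 2060 regions of 500 to 1000 bp (9.80%).

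EP300 was then placed on the regions, each peak by its midpoint, called its centre. A minority of wide regions held an EP300 centre. In replicate 1, 149 of 961 did (15.5%, Clopper-Pearson 95% interval 13.3% to 18.0%), and in replicate 2, 206 did (21.4%, interval 18.9% to 24.2%). Over all H3K4me1 regions the same count came to 1.80% in replicate 1 and 2.64% in replicate 2, and for regions of 500 to 1000 bp to 360 (1.71%) and 484 (2.30%). These shares are not corrected for width. In replicate 1, 142 wide regions held 1 centre and 7 held 2, and in replicate 2, 190 held 1 and 16 held 2. None held more in either list. The lists often differed in which wide regions held a centre, since 277 did in at least 1 list (28.8%, 3.87% over all regions) and 78 did in both (8.12%, 0.574% over all regions). Of the regions of 500 to 1000 bp, 3.73% held a centre in at least 1 list and 0.290% in both.

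Direct overlap by at least 1 bp was far more common than a centre inside. EP300 peaks overlapped 368 wide regions in replicate 1 (38.3%, 12.3% over all regions) and 421 in replicate 2 (43.8%, 14.2% over all regions). A centre inside or within 1000 bp of an edge was present at 400 wide regions in replicate 1 (41.6%) and 454 in replicate 2 (47.2%), where all regions gave 15.3% and 17.1%. For regions of 500 to 1000 bp these shares were 19.2% and 21.2%. In both lists alike, a centre was inside or within 1000 bp at 311 wide regions (32.4%, 9.74% over all regions), and in at least 1 list at 543 (56.5%, 22.6% over all regions), compared with 12.3% and 28.04% of the regions of 500 to 1000 bp. At 417 wide regions (43.4%, 77.3% over all regions) neither list had an overlapping peak or a centre within 1000 bp, against 15113 (71.9%) of the regions of 500 to 1000 bp.

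Corrected for width, the inside of wide regions held about 2 times as many EP300 centres per kb as the inside of regions of 500 to 1000 bp. In replicate 1 there were 156 centres in 3214 kb, or 0.0485 per kb (exact Poisson 95% interval 0.0412 to 0.0568), against 0.0248 per kb in regions of 500 to 1000 bp. In replicate 2 there were 222 centres, or 0.0691 per kb (interval 0.0603 to 0.0788), against 0.0334 per kb. The ratio of wide to 500 to 1000 bp was 1.96 (exact conditional interval 1.61 to 2.37) in replicate 1 and 2.07 (interval 1.76 to 2.43) in replicate 2, with a mean of 2.01 ± 0.081 (SD, n = 2 lists). Both ratios exceeded 1 by more than the spread between the lists. Regions of a single sample are not replicates, so no p-value was computed for this or any other contrast between width classes.

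The 500 bp beyond the edges held far more EP300 than the inside. This zone was counted only where no other H3K4me1 region lay, which left 835.3 kb around wide regions. In replicate 1 it held 204 centres, or 0.244 per kb (exact Poisson interval 0.212 to 0.280), which was 5.03 times the density inside wide regions (interval 4.06 to 6.24). In replicate 2 it held 227 centres, or 0.272 per kb (interval 0.238 to 0.310), 3.93 times the density inside (interval 3.26 to 4.76). For regions of 500 to 1000 bp the densities outside were 0.124 and 0.130 per kb, and the ratios of outside to inside were 4.98 and 3.89. Wide regions and those of 500 to 1000 bp therefore had almost the same ratio within each list, with means of 4.48 ± 0.776 and 4.43 ± 0.767 (SD, n = 2 lists), while the level outside was 1.98 times higher around wide regions in replicate 1 and 2.09 times in replicate 2.

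In steps of 250 bp, EP300 around wide regions peaked between the edge and 500 bp outside it. In replicate 1 the density was 0.230 per kb from 0 to 250 bp outside, 0.275 from 250 to 500 bp, 0.0963 from 500 to 750 bp and 0.0283 from 1750 to 2000 bp. In replicate 2 it was 0.287, 0.270, 0.0994 and 0.0346 per kb at the same distances. Both lists thus fell steeply past 500 bp. Inside the edge the density was 0.0562 per kb in the first 250 bp of replicate 1 and 0.0604 in replicate 2. From 250 to 500 bp inside it was lower, with 0.0187 per kb (9 centres, interval 0.00856 to 0.0356) in replicate 1 and 0.0395 per kb (19 centres, interval 0.0238 to 0.0618) in replicate 2. Deeper, from 750 to 1000 bp inside, it was 0.0604 per kb (29 centres, interval 0.0404 to 0.0867) and 0.0916 per kb (44 centres, interval 0.0665 to 0.123). In each list the interval at 250 to 500 bp lay below that at 750 to 1000 bp, a pair of steps chosen after the values were seen. Regions of 500 to 1000 bp had 0.0285 and 0.0368 per kb in the first 250 bp inside.

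**Figure D1:**
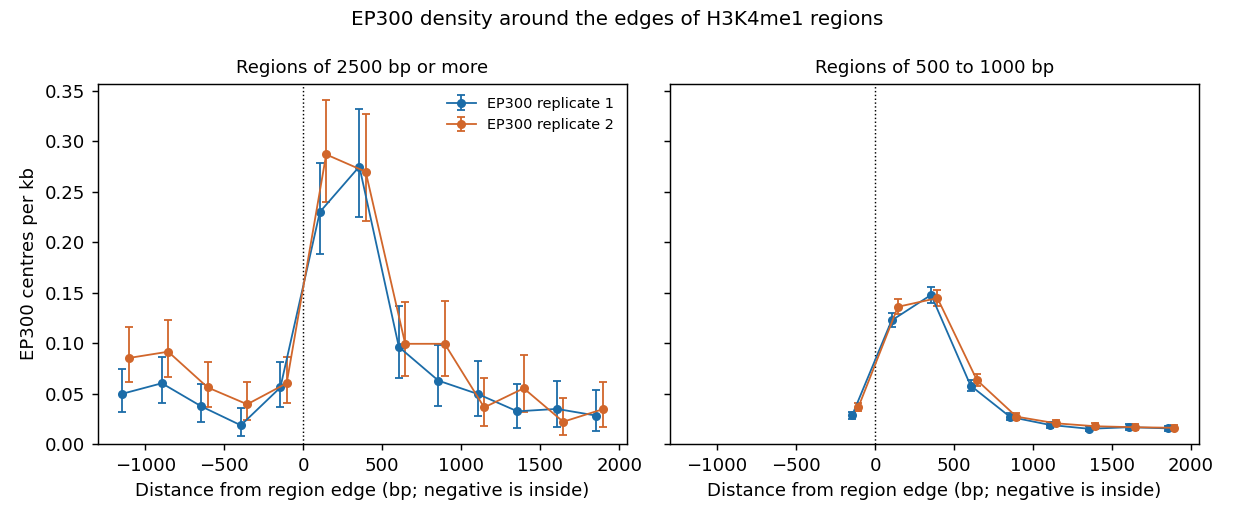
EP300 centres per kb (vertical axis) against the distance from the edge of H3K4me1 regions in steps of 250 bp (horizontal axis, negative inside), for wide regions on the left and regions of 500 to 1000 bp on the right. Points are the 2 EP300 lists, bars are exact Poisson 95% intervals, and sequence under other H3K4me1 regions is left out outside the edge. The highest points around wide regions are 0.275 per kb in replicate 1 and 0.287 per kb in replicate 2.

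Within wide regions the outer 250 bp at each end and the interior did not differ in a constant direction. The density of the outer 250 bp over that of the interior was 1.19 (exact conditional interval 0.756 to 1.81) in replicate 1 and 0.855 (interval 0.558 to 1.27) in replicate 2, so both intervals included 1. With summits as centres the mean of the lists was 0.729, and for peaks found in both lists 1.62. In regions of 500 to 1000 bp the outer 250 bp had the higher density, by 1.87 times (interval 1.41 to 2.50) and 1.52 times (interval 1.21 to 1.92). The interior of wide regions held 129 centres in replicate 1 and 193 in replicate 2. Its density was 3.09 times (interval 2.26 to 4.27) and 2.91 times (interval 2.27 to 3.75) that of the interior of regions of 500 to 1000 bp. The latter reaches at most 500 bp from an edge, so the interiors compared differ in depth. At 250 to 500 bp from an edge, wide regions had 0.0187 per kb in replicate 1 and 0.0395 in replicate 2. The interior of regions of 500 to 1000 bp had 0.0153 and 0.0243 per kb, with overlapping intervals in each list. Centres inside wide regions lay a median of 952 bp from the nearest edge in replicate 1 and 962.5 bp in replicate 2.

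Density inside the regions was higher in wider classes up to 2000 to 2450 bp and similar beyond that. In replicate 1 it was 0.0151 per kb in regions of 100 to 450 bp, 0.0248 at 500 to 1000 bp, 0.0274 at 1050 to 1450 bp, 0.0428 at 1500 to 1950 bp and 0.0459 at 2000 to 2450 bp. The wide regions followed with 0.0467 per kb at 2500 to 2950 bp, 0.0490 at 3000 to 3950 bp and 0.0505 at 4000 bp or more. In replicate 2 the corresponding wide classes had 0.0657, 0.0788 and 0.0626 per kb, after 0.0752 at 2000 to 2450 bp. The intervals of the 4 widest classes overlapped in each list. Outside the edges, wide regions of 4000 bp or more stood highest, at 0.376 per kb (interval 0.287 to 0.486) in replicate 1 and 0.357 per kb (interval 0.270 to 0.464) in replicate 2, compared with 0.211 (interval 0.169 to 0.260) and 0.274 (interval 0.226 to 0.329) at 2500 to 2950 bp. The intervals of these classes were apart in replicate 1 and overlapped in replicate 2.

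**Figure D2:**
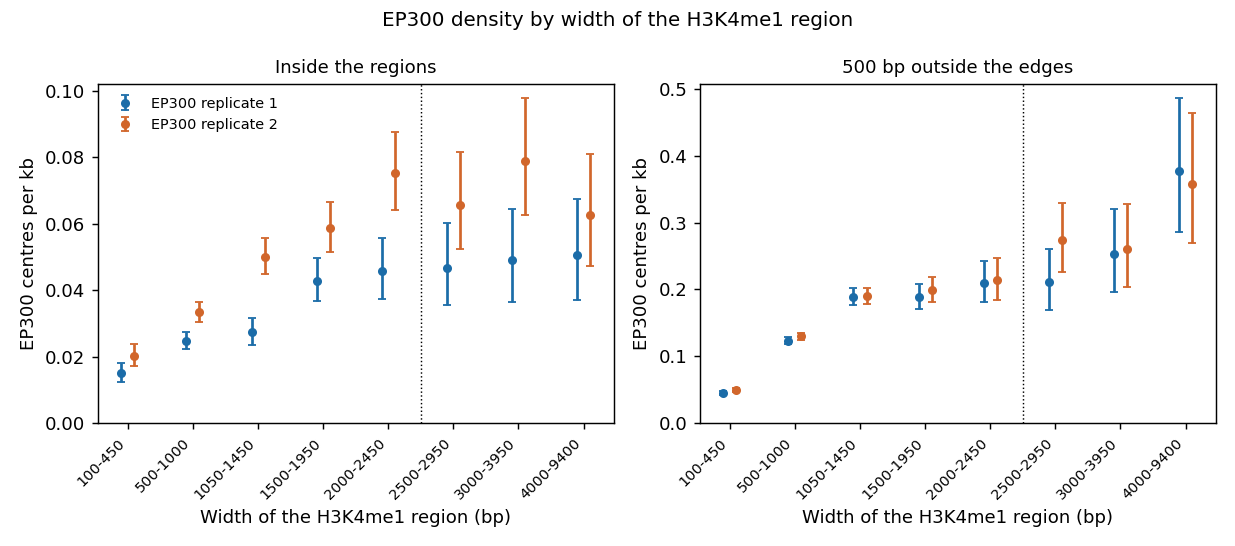
EP300 centres per kb (vertical axes) by width class of the H3K4me1 region in bp (horizontal axes), inside the regions on the left and in the 500 bp outside the edges on the right. Points are the 2 EP300 lists with exact Poisson 95% intervals, and the dotted line marks 2500 bp. Inside, replicate 1 goes from 0.0151 per kb in the narrowest class to 0.0505 in the widest.

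Rank moved with width, and the difference outside the edges was smaller among regions high in the ranking. In the first 20% of the H3K4me1 ranking, 893 wide regions and 5431 regions of 500 to 1000 bp remained. Outside their edges the density was 0.254 per kb for wide regions and 0.219 for regions of 500 to 1000 bp in replicate 1, and 0.282 and 0.221 per kb in replicate 2. The mean ratio there was 1.22, against 2.04 without that limit, whereas inside the regions it was 1.88 against 2.01. Within these 20% the ranks still differed, with a median of 2504 for wide regions and 7091 for those of 500 to 1000 bp, and the part of rank in the remainder was not tested. Among the wide regions alone, split into 4 classes of like size from the best rank down, the density outside the edges was 0.401, 0.234, 0.222 and 0.154 per kb in replicate 1 and 0.440, 0.300, 0.217 and 0.163 in replicate 2. The first class held ranks of 3 to 1104 and the last those of 5922 to 25385. Inside the same classes it was 0.0574, 0.0538, 0.0432 and 0.0373 per kb in replicate 1 and 0.0787, 0.0717, 0.0641 and 0.0594 in replicate 2, with overlapping intervals between the first and the last class.

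EP300 in gaps between neighbouring H3K4me1 regions was compared at equal gap width. Gaps of up to 1000 bp beside a wide region numbered 909, and 195 of them (21.5%, interval 18.8% to 24.3%) held a centre in replicate 1 and 217 (23.9%, interval 21.1% to 26.8%) in replicate 2. Of 3166 such gaps between 2 regions of 500 to 1000 bp, 19.7% (interval 18.3% to 21.1%) and 20.7% (interval 19.3% to 22.2%) held a centre. At gaps of 500 to 700 bp the shares were 30.8% beside a wide region and 30.0% between regions of 500 to 1000 bp in replicate 1, and 34.8% and 29.1% in replicate 2. At gaps of 750 to 1000 bp they were 32.1% and 33.0% in replicate 1, and 31.5% and 33.6% in replicate 2. The intervals overlapped at every gap width in both lists. The narrowest gaps, of 50 to 200 bp, seldom held a centre, at 4.43% beside wide regions in replicate 1 and 5.06% in replicate 2. Of the 55 gaps of up to 1000 bp with a wide region on both sides, 18 (32.7%, interval 20.7% to 46.7%) held a centre in replicate 1 and 22 (40.0%, interval 27.0% to 54.1%) in replicate 2.

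**Figure D3:**
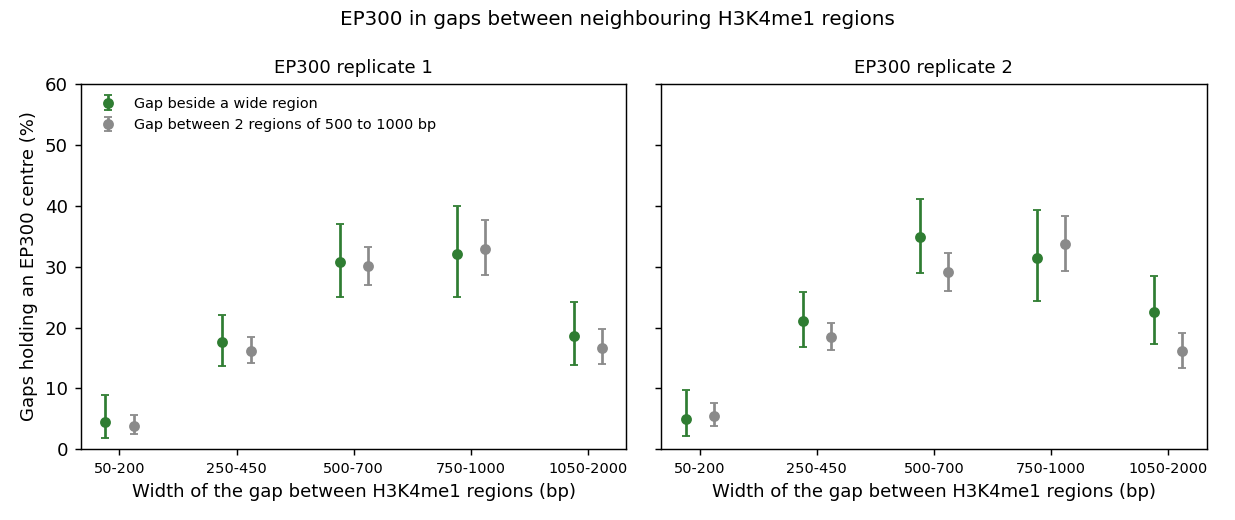
Share of gaps that held an EP300 centre in percent (vertical axis) by width of the gap in bp (horizontal axis), for gaps beside a wide region (green) and between 2 regions of 500 to 1000 bp (grey), with EP300 replicate 1 on the left and replicate 2 on the right. Bars are Clopper-Pearson 95% intervals, which overlap at each width, for example around 30.8% and 30.0% at 500 to 700 bp in replicate 1.

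Where EP300 lay beyond the edges of a wide region, it was mostly beyond 1 edge and seldom beyond both. Here a centre was counted within 500 bp of an edge also where another region covered it. It lay outside exactly 1 edge at 213 wide regions in each list (22.2%), where all regions gave 10.1% in replicate 1 and 10.7% in replicate 2. It lay outside both edges at 11 in replicate 1 (1.14%, 0.152% over all regions) and 25 in replicate 2 (2.60%, 0.179% over all regions). Among regions of 500 to 1000 bp, 13.6% and 14.5% had a centre beyond 1 edge, and 0.114% and 0.0904% beyond both. A centre inside together with one beyond an edge occurred at 24 wide regions in replicate 1 (2.50%, 0.108% over all regions) and 47 in replicate 2 (4.89%, 0.172% over all regions). Where EP300 lay beyond 1 edge of a wide region, the highest H3K4me1 score within that region was on the EP300 side of the region's midpoint in 150 of 213 cases in each list (70.4%, interval 63.8% to 76.5%). For regions of 500 to 1000 bp it was 51.3% (interval 49.5% to 53.2%) in replicate 1 and 51.5% (interval 49.7% to 53.3%) in replicate 2, and over all regions 52.2% and 52.1%. The position was taken relative to the midpoint of each region, with no correction for width.

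EP300 peaks beyond the edges of wide regions were stronger, and more often found in both lists, than those with a centre inside. Outside the edges the median enrichment, as deposited, was 7.575-fold in replicate 1 and 6.85-fold in replicate 2, and 86.3% (interval 80.8% to 90.7%) and 74.4% (interval 68.3% to 80.0%) of these peaks overlapped a peak of the other list. Inside, the median was 6.08-fold and 5.615-fold, and 56.4% (interval 48.2% to 64.3%) and 39.6% (interval 33.2% to 46.4%) were found in both lists. Over all EP300 peaks, 42.9% of replicate 1 and 34.8% of replicate 2 were found in the other list. Peaks in the 500 bp outside regions of 500 to 1000 bp were found in both lists in 65.5% and 61.2% of cases, and those inside such regions in 42.2% and 31.6%. There too the median enrichment was higher outside, where it was 6.76-fold in replicate 1 and 6.2-fold in replicate 2, than inside, where it was 5.77-fold and 5.52-fold.

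The placement also differed with the strength of EP300. Over 5 classes of like size from the least to the most significant peaks of replicate 1, 0.947%, 1.24%, 1.30%, 3.08% and 5.50% of peaks had their centre in the 500 bp outside wide regions, and in replicate 2 the shares were 0.435%, 0.870%, 1.30%, 2.75% and 5.60%. Inside wide regions the shares had no such order, with 1.36%, 1.66%, 2.43%, 2.13% and 1.66% in replicate 1 and 1.45%, 1.35%, 2.46%, 3.04% and 2.41% in replicate 2. Of the 100 most significant peaks, 8 lay in the 500 bp outside wide regions in replicate 1 (interval 3.52% to 15.2%, 2.41% over all peaks) and 7 in replicate 2 (interval 2.86% to 13.9%, 2.19% over all peaks). Inside wide regions lay 3 of them in replicate 1 (interval 0.623% to 8.52%) and 0 of 100 in replicate 2 (upper limit 3.62%, Clopper-Pearson), and both intervals included the share over all peaks of 1.85% in replicate 1 and 2.14% in replicate 2. Of those 3, named here after their values were seen, 2 lay close together on chromosome 15, at 78985812 to 78987364 with 3164 tags and at 78989392 to 78990279 with 1015 tags. The overlapping peaks of replicate 2 had 79 and 37 tags, far fewer than in replicate 1. Their significance scores were 166.66 and 63.25. The most significant of the 5 classes of replicate 2 began at 132.72, so the first fell in that class and the second did not. The other of the 3, on chromosome 3 at 101354702 to 101356054, had 30.09-fold enrichment in replicate 1 and 18.77-fold in replicate 2.

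Wide regions in groups had more EP300 outside their edges than those that stood alone. The 398 grouped regions had 0.310 centres per kb (exact Poisson interval 0.252 to 0.377) in replicate 1 and 0.363 (interval 0.300 to 0.435) in replicate 2, and the 563 without a wide neighbour within 20 kb had 0.203 (interval 0.166 to 0.246) and 0.214 (interval 0.176 to 0.258). Inside, grouped regions had 0.0469 per kb (interval 0.0363 to 0.0597) and 0.0569 (interval 0.0451 to 0.0708), and lone ones 0.0498 (interval 0.0400 to 0.0612) and 0.0786 (interval 0.0662 to 0.0926), with overlapping intervals. Grouped regions were slightly wider, with a median of 3150 bp against 2900 bp. Within the 52 groups of at least 3, H3K4me1 regions of any width covered 60.4% of the span. Of the 97 EP300 centres of replicate 1 in these spans, 53 lay between regions, and of the 118 of replicate 2, 67 did.

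Of the 10 widest regions, 9 had an EP300 peak of either list inside or within 1000 bp of an edge. Distance here was taken from the border of the peak. By centres, the region on chromosome 14 described below would not count. The widest, at chromosome 2, 102714450 to 102723849 (9400 bp), had no centre inside, while a peak of 18.9-fold in replicate 1 and one of 22.67-fold in replicate 2 lay to its left with centres 932 bp and 865 bp away. Both centres lay between another wide region, at 102708450 to 102713299 (4850 bp), and an H3K4me1 region of 350 bp. The latter was 300 bp from the widest region. The region at chromosome 1, 36685800 to 36694849 (9050 bp), held a peak found in both lists with centres 2665 bp and 2666 bp from the left edge (9.3-fold and 9.53-fold), and a further replicate 2 peak of 5.75-fold. At chromosome 1, 78143000 to 78151099 (8100 bp), a single weak peak of replicate 2 lay inside (4.66-fold, 52 tags), and replicate 1 had none. Its neighbour at chromosome 1, 78156650 to 78164549 (7900 bp), held a peak of 5.09-fold in replicate 1 and 7.19-fold in replicate 2. The EP300 peaks inside these 3 regions of chromosome 1 thus ranged between 4.66-fold and 9.53-fold.

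The region at chromosome 2, 38383750 to 38391399 (7650 bp), held 2 centres in each list, a pair deep inside (6.67-fold in replicate 1 and 9.38-fold in replicate 2) and a pair near the right edge, 130 bp and 290 bp from it (10.43-fold and 9.3-fold). At chromosome 2, 173084600 to 173091699 (7100 bp), the peak at the left edge had its centre 34 bp inside in replicate 1 (13.06-fold) and 226 bp outside in replicate 2 (9.87-fold), so the lists placed it on different sides of the edge. A replicate 2 peak of 10.85-fold lay 379 bp beyond its right edge, with no partner in replicate 1. At chromosome 7, 121891650 to 121898649 (7000 bp), a strong peak stood beyond the left edge, 323 bp away with 29.44-fold enrichment in replicate 1 and 49 bp away with 11.52-fold in replicate 2, which also had a weak peak inside (4.87-fold, 48 tags). The region at chromosome 17, 56160500 to 56167449 (6950 bp), had no EP300 peak of either list within 1000 bp. The region at chromosome 14, 70728850 to 70735549 (6700 bp), ranked 8 in the H3K4me1 list, and the nearest EP300 centres lay 1013 bp and 1008 bp beyond its right edge (8.08-fold and 4.36-fold). The region at chromosome 8, 73083250 to 73089949 (6700 bp), held 2 centres of replicate 1 (8.1-fold and 4.34-fold) and 1 of replicate 2 (4.41-fold).

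**Figure D4:**
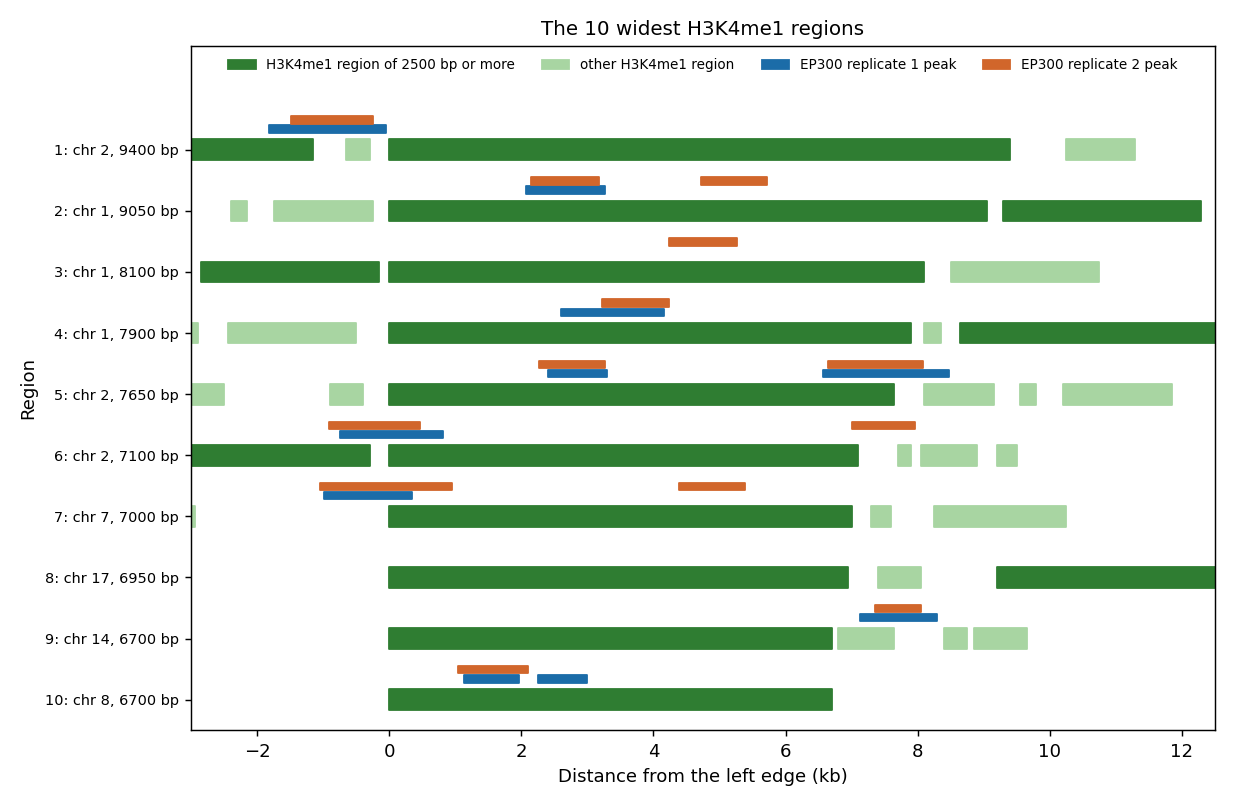
The 10 widest H3K4me1 regions, aligned at their left edge, with distance in kb on the horizontal axis and 1 region per line. Dark green bars are regions of 2500 bp or more, light green bars are other H3K4me1 regions, and blue and orange bars are EP300 peaks of replicates 1 and 2. EP300 peaks overlap the widest region, of 9400 bp, in neither list.

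The wide regions with the most EP300 centres over both lists were 3 with 4 each, that at chromosome 2, 38383750, and those at chromosome 15, 79852050 to 79858599 (6550 bp) and chromosome 1, 137673550 to 137677799 (4250 bp). On chromosome 15 the stronger pair of peaks had 7.59-fold enrichment in replicate 1 and 11.22-fold in replicate 2, and the weaker pair 5.47-fold and 6.26-fold. On chromosome 1 the peaks near the right edge, 122 bp and 264 bp inside, had 9.55-fold and 9.97-fold enrichment. At the left edge of the same region, the centre was 235 bp inside in replicate 1 (4.24-fold) and 47 bp outside in replicate 2 (7.67-fold). The remaining centre inside was that of a weak replicate 2 peak (4.13-fold, 27 tags) without a partner in replicate 1. A further 9 wide regions had 3 centres, and the regions at chromosome 1, 36685800, and chromosome 8, 73083250, described above, were the widest of them.

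The widest regions with no EP300 peak of either list within 1000 bp were that at chromosome 17, 56160500, also among the 10 widest, and those at chromosome 11, 117851600 to 117857999 (6400 bp), chromosome 10, 80219100 to 80225149 (6050 bp), chromosome 9, 108123100 to 108129149 (6050 bp), and chromosome 1, 93995750 to 94001749 (6000 bp). In the H3K4me1 ranking, 4 of the 5 stood between 101 and 1034 and the one on chromosome 9 stood at 8236. These 5 were picked by width, which went with rank, so their ranks do not stand for all wide regions without EP300. Over all wide regions, a centre inside or within 1000 bp was less frequent at lower rank. In the best of the 4 rank classes it was present at 53.9% in replicate 1 and 61.8% in replicate 2. In the last class, with ranks of 5922 to 25385, it was present at 28.75% and 35%. All 5 had at least 1 flanking H3K4me1 region within 1000 bp except that on chromosome 10, whose neighbours lay 3300 bp and 11650 bp away. The region on chromosome 1 belonged to a group of 6 wide regions. Distance to EP300 was again taken from the border of a peak, not from its centre. Absence from a list means that no peak passed the authors' threshold, not that EP300 was absent.

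The 5 largest groups are those of 8 and of 7 and, of the 6 groups with 6 wide regions, the 3 with the greatest summed width. The largest group had 8 wide regions over 77.55 kb on chromosome 6, from 146830900 to 146908449, with 20 H3K4me1 regions of any width. It held 6 EP300 centres in replicate 1 and 4 in replicate 2, of which 2 and 1 lay in a wide region, and none exceeded 6.36-fold in replicate 1 or 9.2-fold in replicate 2. The group of 7 on chromosome 1, from 78140150 to 78182749, was the most continuous of the 5 groups described here, with H3K4me1 over 91.3% of its 42.6 kb. It held 1 centre in replicate 1 and 2 in replicate 2, all inside wide regions. Over the whole span these gave 0.0235 and 0.0469 per kb, against 0.0581 and 0.0707 over the spans of all groups of at least 3. Counts this small do not show a difference. The group of 6 on chromosome 1, from 93977100 to 94042849, held 2 centres in replicate 1 and 3 in replicate 2, and 2 of those in each list lay between regions.

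The groups of 6 on chromosomes 7 and 15 had higher values of EP300 centres per kb than the groups above. That on chromosome 7 held only 4 centres in each list (0.0980 per kb). The group on chromosome 6 had 0.0774 per kb in replicate 1 and 0.0516 in replicate 2, and counts of this size do not show a difference. On chromosome 7, from 29703550 to 29744349, H3K4me1 covered 87.7% of the span, and the strongest EP300 peaks of each list, at 10.7-fold in replicate 1 and 10.69-fold in replicate 2, lay between regions. On chromosome 15, from 78983550 to 79043249, there were 10 centres in each list, or 0.168 per kb, of which 5 in replicate 1 and 3 in replicate 2 were in wide regions. Here the lists differed in strength. In replicate 1, 3 peaks had 1015 to 3164 tags and 21.76-fold to 46.24-fold enrichment, while the peaks of replicate 2 at the same places had 37 to 79 tags and 5.56-fold to 6.21-fold enrichment. At the right end of the group the lists were alike, with 19.74-fold (198 tags) in replicate 1 and 19.31-fold (152 tags) in replicate 2.

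**Figure D5:**
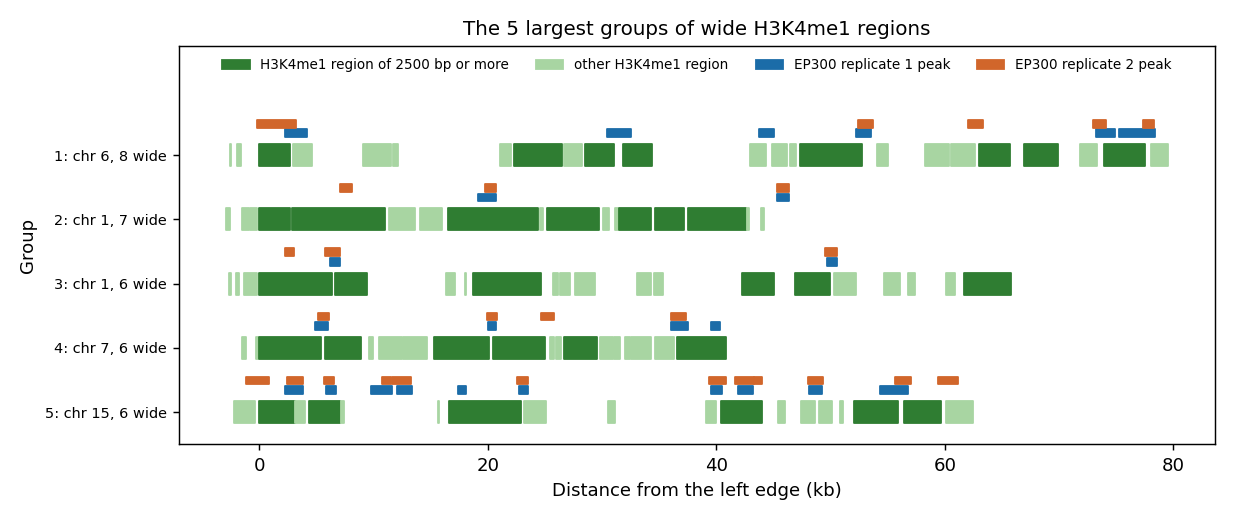
The 5 largest groups of wide H3K4me1 regions, with distance from the left edge of the group in kb on the horizontal axis and 1 group per line. Dark green bars are regions of 2500 bp or more, light green bars other H3K4me1 regions, and blue and orange bars EP300 peaks of replicates 1 and 2. The group of 7 on chromosome 1 is covered almost throughout (91.3%) and has 1 EP300 centre in replicate 1 and 2 in replicate 2. That of 6 on chromosome 15 has 10 centres in each list.

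The values of regions just inside and just outside the limit of 2500 bp are given without a test. At 2500 bp, just inside it, 66 regions had a median rank of 3786, and 8 of them (12.1%) held a centre in replicate 1 and 9 (13.6%) in replicate 2. At 2450 bp, just under it, 62 regions had a median rank of 3431.5, and 9 (14.5%) and 11 (17.7%) held a centre. At 2400 bp, 10 of 86 regions (11.6%) held one in replicate 1 and 22 (25.6%) in replicate 2. A centre inside or within 1000 bp was present at 27 (40.9%) and 28 (42.4%) of the regions of 2500 bp, at 20 (32.3%) and 24 (38.7%) of those of 2450 bp, and at 29 (33.7%) and 41 (47.7%) of those of 2400 bp.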

How the data were processed

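EP300 peaks were called by the authors with MACS 1.4.1 for each replicate against its own control, with a p-value threshold of 1e-05 and a fragment size of 200 bp, per the file headers. The deposited EP300 lists give tag counts, a significance score of 10 times -log10 of p, a fold enrichment over background and, in percent, a false discovery rate. The deposited H3K4me1 list gives regions on a 50 bp grid with a rank, a score, a maximum log2 fold change, a -log10 p-value and a false discovery rate (q-value). Its caller and the pooling of its replicates are not given here by any source used. The build is mm9, per the submitters' processing notes. All these values are the authors' and served only to describe, rank or filter peaks within a list.

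Computed here with Python 3.11.15, numpy 2.4.6, pandas 2.3.3 and scipy 1.17.1 were widths, groups, overlaps and EP300 centres per kb in the inside, in the outer 250 bp, in the interior and in the 500 bp outside regions. Zones were merged so that each centre counted once within a zone. In the profile by steps of 250 bp, a centre near more than 1 edge could count in more than 1 step. Intervals are exact 95% intervals (Clopper-Pearson, Poisson, and conditional for ratios of rates). They cover counting error only. No test was made, since each mark is 1 sample and regions are not replicates. Functions were tested on simulated data. Regions named were the 10 widest, the 5 with the most EP300 centres over both lists (ties by width), the 5 widest without EP300 within 1000 bp and the 5 largest groups (ties by summed width), with others said to be chosen later. Members, lists and rules were chosen with earlier results of these data known. Genes and sequences were not analysed here.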

Additional observations from a re-analysis of the deposited data

How the results depend on the processing

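Of 98 recomputed values, 20 could not move past the SD between the 2 EP300 lists by construction: those of 1 list alone, the overlap with summits as centres, and results on wide regions alone under a rank limit that all of them pass. Of the other 78, 41 moved by less than that SD (for grouping, stayed in the binomial interval) and 37 by more. Of the 98, 23 came from 3 alternatives chosen after seeing the data: the first 20% by rank, EP300 peaks found in both lists, and leaving out chromosome 6. The ratio of the outer 250 bp to the interior fell on both sides of 1, and no other ratio fell below 1. The direction of some moves was fixed by construction. Shares with EP300 cannot rise when EP300 peaks are left out or when 50% of a peak must lie inside. The share with a wide neighbour cannot rise within 10 kb or fall within 50 kb. Except for these and the joining of regions, the cause of a move was not tested. Values below are means of the lists. No paired analysis was possible because the 2 samples are different marks and no result comes from a test.

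Inside the regions, the density of wide over 500 to 1000 bp (2.01) was 2.11 with the upper 50% of each EP300 list, 1.80 against all regions under 2500 bp, 1.88 in the first 20% by H3K4me1 rank, 2.60 for EP300 peaks in both lists and 4.37 with H3K4me1 regions up to 500 bp apart joined. That joining gave 2710 wide regions and moved gaps inside them by construction. It lowered outside over inside (4.48) to 1.15, outside wide over 500 to 1000 bp (2.04) to 1.04 and outer 250 bp over interior (1.02) to 0.188, and raised the share with a centre inside (18.5%) to 31.99%. Outside over inside was 6.10 in the upper 50% of EP300, 7.54 for peaks in both lists and 3.22 in an outer zone of 1000 bp. Outside wide over 500 to 1000 bp was 1.80 with regions of 2000 bp or more, 2.25 with 3000 bp or more, 2.27 in the upper 50% of EP300, 1.75 in the upper 50% of H3K4me1, 1.22 in its first 20%, 2.58 for peaks in both lists and 2.19 in the outer zone of 1000 bp. Outer 250 bp over interior was 0.729 with EP300 summits, 1.45 in the upper 50% of EP300, 1.62 for peaks in both lists and 0.675 with an edge zone of 500 bp.

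The share overlapping EP300 (41.1%) was 45.4% with 3000 bp or more, 31.3% in the upper 50% of EP300 and 29.3% for peaks in both lists. With at least 50% of the peak inside it was 18.5%, which equals the share with a centre inside in each list. For a peak shorter than the region these are the same condition, so the equality is largely by construction. The share with a centre inside was 11.2% in the upper 50% of EP300 and 8.74% for peaks in both lists. The share with a centre inside or within 1000 bp (44.4%) was 40.3% with 2000 bp or more, 49.3% with 3000 bp or more, 33.6% in the upper 50% of EP300 and 31.6% for peaks in both lists. The share with a wide neighbour (41.4%) was 47.3% with 2000 bp or more, 35.2% with 3000 bp or more, 31.8% within 10 kb and 50.6% within 50 kb. Without replicate 1 or 2 the values were those of the other list, as in the report, with outer 250 bp over interior from 0.855 to 1.19. Without chromosome 6, and without chromosomes X and Y and unplaced sequence, all 8 results moved by less than that spread. How far H3K4me1 width depends on depth is unknown, as that list gives none.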
